A study of Mus musculus with 20 samples.

Results

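Gene expression in the ventricles of Creld1 knockout mice on postnatal day 3 (P3) was compared with that in whole knockout hearts of the mid-gestation stage E13.5. The comparison rests on 7 of the 20 libraries of the series, 3 of P3 ventricles and 4 of E13.5 hearts, each from a different animal and each labelled MyHC-Creld1 KO on the C57BL/6N strain. Creld1 encodes a transmembrane protein of the endoplasmic reticulum and had been removed in the myocardium under a myosin heavy chain driver, which acts in muscle cells and spares the gene in the other cells of the heart. All 7 libraries carry this label, and the comparison describes how hearts labelled as knockout differed between mid-gestation and the first days after birth. Wild-type littermates of C57BL/6N, with 4 libraries of E13.5 hearts and 3 of P3 ventricles, were used only to test whether the change differed between genotypes. Atria of the same 3 knockout pups were used only to show which differences go with the chamber taken. The E13.5 samples are labelled as heart, undivided, and the P3 samples held ventricles only, so stage and dissection cannot be told apart. E13.5 replicates 1 to 3 were prepared in 2016 and E13.5 replicate 4 and all P3 replicates in 2018, and E13.5 replicates 2 and 3 came from 1 litter.

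Around birth the heart passes from a low-oxygen environment fed by placental glucose and lactate to one rich in oxygen and in milk lipids. Cardiomyocytes, the contracting muscle cells, then turn to oxidation of fatty acids in mitochondria, exchange fetal for adult isoforms of their contractile and metabolic proteins, and leave the cell cycle soon after birth. Fibroblasts and capillaries expand at the same time, the atria and ventricles keep separate contractile protein sets, and embryonic globins are replaced in the blood.

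Estimated total counts were 6716816 to 13965266 in the E13.5 libraries and 12735283 to 20669361 in the P3 libraries, and 18981 to 21194 genes had a value above 0. Values are the deposited normalized signal, given below in the order of E13.5 replicates 1 to 4 and then P3 replicates 1 to 3. Mitochondrially encoded transcripts took 19.5 to 22.4% of the signal at E13.5 and 36.3 to 37.3% at P3, and globins 0.493 to 2.78% and 0.140 to 0.225%. Xist, the RNA that coats the inactive X chromosome of females, was at 2858 to 3003 in E13.5 replicate 2 and P3 replicates 2 and 3 and at 21.6 to 38.2 in the others, so both groups held both sexes. Libraries of 1 group correlated with each other at 0.83 to 0.88 across genes, and libraries of different groups at 0.78 to 0.83.

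Creld1 itself (chr6:113483297-113493343, plus strand of mm10) was at 70.9, 7.48, 38.4 and 4.64 in the E13.5 knockout hearts and at 19.9, 59.3 and 51.9 in the P3 knockout ventricles. In the wild-type libraries it was at 66.0, 92.2, 60.8 and 34.0 at E13.5 and at 62.2, 59.7 and 130 at P3, so the knockout E13.5 replicates 1 and 3 lay within the wild-type range of their stage, and P3 replicate 2 lay just below its wild-type range. Whether Creld1 was lost to the same degree in these libraries was not tested, and they are called knockout by their labels. The 2 knockout stages overlapped, with means of 30.3 ± 31.0 (SD, n = 4) and 43.7 ± 20.9 (SD, n = 3). The difference was 1.08 log2 units (SE 0.93, limma adjusted p = 0.590). The highest E13.5 value was that of replicate 1 and the highest P3 value that of replicate 2, and both of these libraries were also left out together in an alternative fit. Creld2, a paralogue secreted from the endoplasmic reticulum under protein-folding stress, was at 197 to 443 at E13.5 and 210 to 465 at P3, with a difference of -0.08 (limma adjusted p = 0.937).

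Of 15141 genes tested, 565 were higher (3.73%) and 346 lower (2.29%) in P3 ventricles at a limma adjusted p under 0.05, which is 6.02% in either direction. At least a 2-fold difference was seen for 439 of the higher and 280 of the lower genes. The groups did not overlap for 2857 genes (18.9%), 1523 of them higher (10.1%) and 1334 lower (8.81%), and for 908 of the 911 genes called. The median difference over all genes was -0.02 log2 units, and 838 of the 911 called genes were protein coding. In bulk tissue, fewer cells of a type and less RNA per cell cannot be told apart. Without P3 replicate 1, 2 or 3 the number of higher genes was 293, 344 and 288, and without E13.5 replicate 1, 2 or 3 the number of lower genes was 229, 230 and 192. All called genes that could still be tested kept their direction in each of these fits. With E13.5 replicate 1 and P3 replicate 2 both left out, 259 genes were higher and 143 lower.

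Genes with the largest rises at P3 were named among those of at least median level whose groups did not overlap. Xirp2, an actin-binding protein of the intercalated disc, was at 10.8, 82.8, 24.2 and 0 at E13.5 and at 1448, 699 and 4663 at P3, a rise of 7.06 log2 units (SE 1.23, limma adjusted p = 0.00748). Its lowest P3 library lay far above its highest E13.5 library. Dpt, which encodes the matrix protein dermatopontin of fibroblasts, was at 92.3, 112, 103 and 113 and then at 2536, 2902 and 2172. It rose by 4.58 log2 units (SE 0.22, limma adjusted p = 1.57e-06), and the libraries of each stage lay close together. Aspn, a small proteoglycan that binds collagen, was at 95.9, 162, 163 and 187 at E13.5 and at 1804, 2526 and 3189 at P3 (4.04, SE 0.29). Ckmt2, the creatine kinase of sarcomeric mitochondria, was at 64.5, 50.2, 96.6 and 57.0 and then at 933, 1435 and 2377, a rise of 4.48 (SE 0.36, limma adjusted p = 5.55e-05). Pdk4, the kinase that shuts pyruvate out of the citric acid cycle, was at 178, 80.6, 115 and 64.0 and then at 1496, 1974 and 1004 (3.81, SE 0.37). Every P3 value of these 5 genes lay above every E13.5 value, which the rule for naming them asked for.

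Others of the largest rises were in Ptgds (4.64), Pi15 (3.93), Fuca2 (3.84), the nuclear RNA Neat1 (3.80), the lipid chaperone Fabp4 (3.71) and Fndc1 (3.54). Fabp4 was at 384, 947, 577 and 303 and then at 5388, 7390 and 7220, and it is known from capillary endothelium and from fat. Neat1 was at 92.6, 124, 52.5 and 89.0 and then at 947, 983 and 1900. The calls of Ptgds and Fndc1 were lost without P3 replicate 3, and that of Ptgds also without P3 replicate 1, while the other 9 of the 11 genes named here were called with any single library left out.

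By the same rule, the 12 largest falls included a pair of embryonic globins. Hbb-y and Hba-x, the embryonic beta-like and alpha-like globins, differed by -12.11 (SE 0.77, limma adjusted p = 1.15e-05) and -11.57 log2 units (SE 0.54, limma adjusted p = 1.57e-06). At P3 Hbb-y was at 1.93, 3.04 and 34.8 and Hba-x at 0, 2.70 and 1.55. Both were tested only because of their E13.5 values, and the pseudocount sets part of these differences and of their SE. Hmga2, a chromatin protein of proliferating embryonic cells, was at 924, 838, 739 and 613 at E13.5 and at 36.7, 18.2 and 37.4 at P3, 25.4-fold lower (-4.67, SE 0.33, limma adjusted p = 2.73e-05). Cdkn1c, the imprinted cyclin-dependent kinase inhibitor p57, was at 3741, 3508, 3831 and 4169 and then at 336, 444 and 225, 11.8-fold lower (-3.56, SE 0.22). Hapln1, which links hyaluronan to versican in the embryonic matrix, was at 371, 278, 281 and 601 and then at 33.8, 28.5 and 1.74 (-4.69, SE 0.79, limma adjusted p = 0.00631). Acvr1c, a receptor of the activin family, was at 562, 810, 511 and 517 and then at 48.7, 68.7 and 53.0 (-3.37, SE 0.29). In each of these genes the highest P3 library lay below the lowest E13.5 library, which the rule for naming them asked for.

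Gtsf1 (-5.12), Rimklb (-3.99), Zdbf2 (-3.22), Myl4 (-3.13), the copper transporter Atp7b (-3.10) and the adhesion receptor Adgrg6 (-3.09) made up the rest of the 12 largest falls. The call of Gtsf1 (limma adjusted p = 0.0235) was lost without any one of the 4 E13.5 libraries and that of Adgrg6 (limma adjusted p = 0.0202) without E13.5 replicate 1, 3 or 4. In atria of the same pups Adgrg6 differed from the E13.5 hearts by 0.12 (0.37 without atrial replicate 3), and Myl4 by 1.10. The atrial differences use the same E13.5 libraries and are given side by side only.

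**Figure D1:**
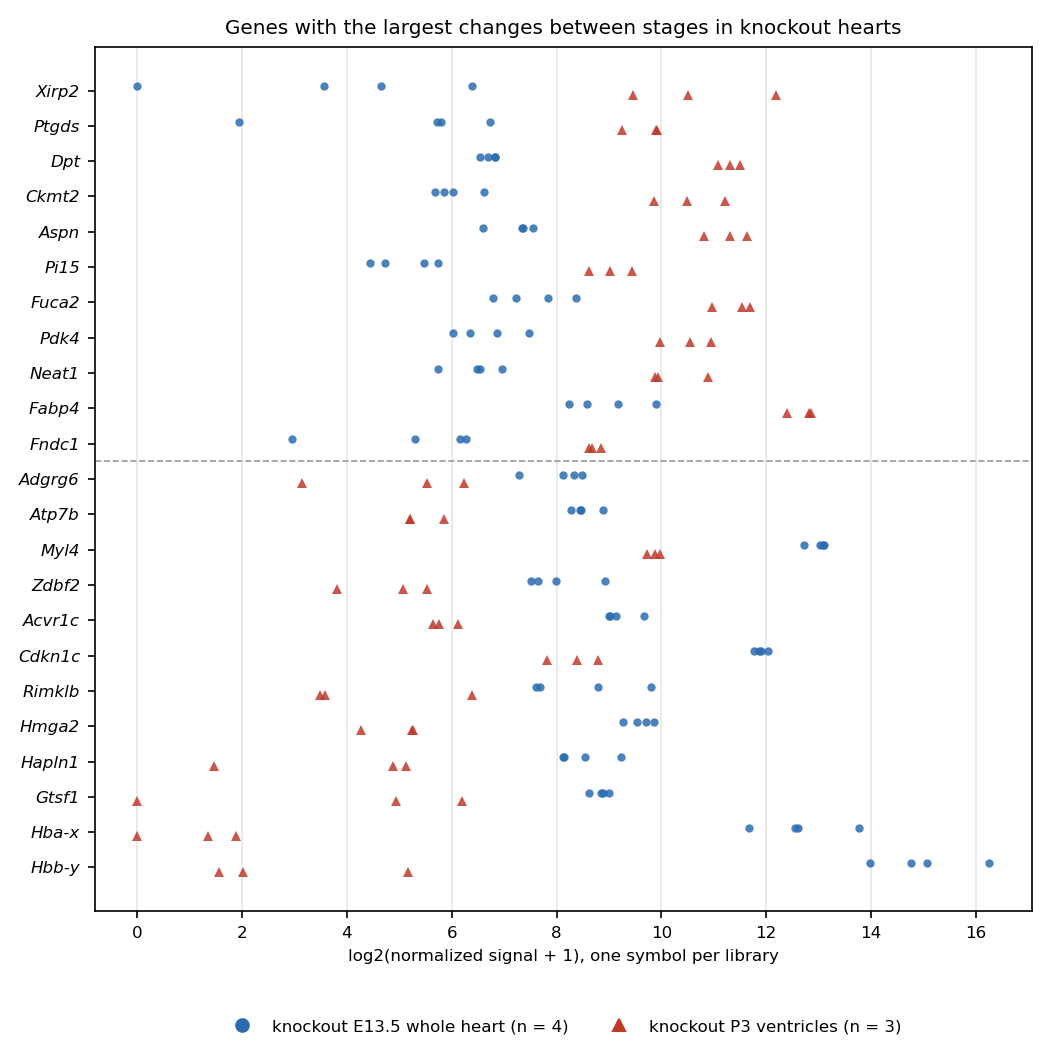
Signal of 11 of the 12 genes with the largest rises and of the 12 with the largest falls, as log2(signal + 1) on the horizontal axis, 1 point per library (circles, 4 knockout E13.5 hearts; triangles, 3 knockout P3 ventricles). Circles and triangles do not overlap in any gene, since the rule for choosing them asked for this, and the gap is widest for Hbb-y and Hba-x.

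Most genes of fatty acid uptake and oxidation rose at P3. Of 33 genes tested, 24 were called higher and 0 lower, against 3.73% and 2.29% of all genes, and all 33 differences were positive, with a median of 1.68 log2 units. Fabp3, the fatty acid carrier of the cardiomyocyte cytosol, was at 2045, 1331, 1947 and 1634 at E13.5 and at 17995, 18658 and 19821 at P3 (3.45, SE 0.17, limma adjusted p = 1.57e-06). Cd36, the membrane protein that takes up fatty acids, was at 1359, 1059, 1479 and 1076 and then at 12492, 16239 and 14102 (3.53, SE 0.17, limma adjusted p = 1.57e-06). For both genes the spread within a stage was far smaller than the distance between stages. Lpl, the lipase that frees fatty acids from circulating lipoproteins, was at 2270, 2372, 1966 and 1992 and then at 11553, 12317 and 12102 (2.48, SE 0.13).

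Inside the cell, Acsl1, which activates fatty acids with coenzyme A, rose by 3.53 (SE 0.28), from 111 to 197 at E13.5 to 1305 to 2351 at P3. Cpt1b, the muscle form of the enzyme that admits acyl groups to mitochondria, was at 557, 448, 588 and 521 and then at 1331, 2424 and 1998 (1.82, SE 0.23, limma adjusted p = 0.00116). Cpt1a, the form typical of liver and of the fetal heart, was at 207, 199, 230 and 291 and then at 485, 910 and 262, and its groups overlapped (1.08, limma adjusted p = 0.133). Among the enzymes of the oxidation spiral, Acadl was at 3625, 3271, 3901 and 3788 and then at 14770, 12587 and 13546 (1.90, SE 0.13), Acaa2 rose by 2.12 (SE 0.17) and Acadm by 1.44 (SE 0.22). Hadh, which catalyses the step between them, was at 877 to 1002 and then at 1608, 1740 and 1109 (0.63, limma adjusted p = 0.0907). Plin5, which coats lipid droplets next to mitochondria, was at 1.97 or less in the 4 E13.5 hearts and at 33.8, 86.9 and 44.4 at P3. It was tested only because of its P3 values and supports nothing by itself. Leaving out any 1 library gave 20 to 25 called genes of this group. With the library of highest Creld1 at each stage left out, E13.5 replicate 1 and P3 replicate 2, 20 genes were called. Creld1 was still at 38.4 in E13.5 replicate 3 and at 51.9 in P3 replicate 3, which stayed in that fit. With the mean of atrial and ventricular levels 15 genes were called. Here and below that mean was taken over log2 levels, with equal weight for both chambers, and is not the level of a whole heart.

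Few of the transcriptional regulators of this programme were called. Of 15 genes of the PPAR, PGC1 and ERR group, 2 were higher and 0 lower, with a median of 0.57. Perm1, a muscle regulator of mitochondrial genes downstream of PGC1, was at 24.0, 4.93, 37.1 and 15.7 and then at 136, 223 and 209 (3.41, SE 0.65, limma adjusted p = 0.0116), a call lost without P3 replicate 2 or 3. Kat2b, the other one, differed by 1.02 and lost its call without any one of 6 of the 7 libraries. Ppargc1a differed by 0.46, Esrra by 0.97 and Ppara by 2.0, and none of the 3 was called.

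Most transcripts of the respiratory chain were higher, from both genomes. All 13 protein-coding genes of the mitochondrial genome were called higher and their median difference was 1.33. mt-Co1, a subunit of cytochrome oxidase, was at 129942, 108563, 117066 and 128841 at E13.5 and at 396329, 373814 and 362828 at P3, 3.12-fold higher (1.64, SE 0.10, limma adjusted p = 1.15e-05). mt-Cytb rose by 1.29, mt-Co3 by 1.51 and mt-Nd5 by 1.56. The 3 atria of the same pups stood apart from each other: replicate 3 lay below all 4 E13.5 hearts for all 13 genes, replicate 2 above all 4 hearts for all 13 and replicate 1 above them for 5. The atrial difference from the E13.5 hearts was therefore -1.39 to -0.21 over the 3 atria and 0.16 to 0.59 without replicate 3. The calls in ventricles depended on the fit. Quantile normalization, which forces all libraries to 1 distribution, left 6 of the 13 called, with a median of 0.40, and 8 were called without a variance trend. When 6 groups shared 1 estimate of the spread none was called, or 2 without atrial replicate 3, and with the mean of each pup's atrial and ventricular levels none was called, or 8 without the third pup.

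Of 36 nuclear genes of complex I 26 were called higher and 0 lower, with a median of 0.85. Of 42 nuclear genes of complexes II to V 32 were higher and 0 lower, with a median of 0.89. Ndufb10, an accessory subunit of complex I, was at 2230, 1775, 2064 and 2025 and then at 4631, 3994 and 4993, 2.24-fold higher (1.16, SE 0.15, limma adjusted p = 0.00134). Most of these changes were of this size or smaller. Cox8b, the heart and muscle isoform of a cytochrome oxidase subunit, stood apart with 293, 164, 285 and 265 and then 2360, 2275 and 2387 (3.25, SE 0.24, limma adjusted p = 3.08e-05). Citric acid cycle and transport genes gave 13 higher and 0 lower of 19, with a median of 0.88, among them the adenine nucleotide carrier Slc25a4 (1.39). Without a variance trend 0 of the complex I genes, 2 of complexes II to V and 1 of the citric acid cycle genes were called. With preparation year as a covariate, which leaves E13.5 replicate 4 to carry the contrast, the counts were 3, 4 and 3. They were 13, 13 and 6 when 6 groups shared the spread and 5, 4 and 3 with the mean of atrial and ventricular levels. Complex I also dropped to 14 without P3 replicate 1 and to 12 without P3 replicate 3.

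Oxygen storage and the creatine kinase shuttle followed the same direction. Mb, myoglobin, was at 692, 643, 959 and 727 and then at 8161, 8345 and 8269 (3.47, SE 0.17, limma adjusted p = 1.57e-06). Its 3 P3 values were within a few percent of each other. Ckm, the muscle creatine kinase, was at 122, 140, 150 and 117 and then at 1492, 1137 and 1144 (3.24, SE 0.23), and the adenylate kinase Ak1 rose by 1.28, a call lost without any one of 5 libraries. Of the 6 genes of this group tested 4 were higher and 0 lower. In P3 atria Mb differed from the E13.5 level by -0.48 (-1.16 without atrial replicate 3) and Ckm by 2.70.

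Glycolysis and pyruvate handling changed in both directions, with 8 genes higher and 3 lower of 28 and a median of -0.10. Slc2a1, the basal glucose transporter of embryonic cells, was at 666, 292, 349 and 540 and then at 69.9, 54.5 and 150, 5.22-fold lower (-2.38, SE 0.41, limma adjusted p = 0.00749). Slc2a4, the insulin-regulated transporter, was at 19.8, 15.9, 26.6 and 44.7 and then at 139, 82.3 and 107 (2.06, SE 0.52, limma adjusted p = 0.0409). The transporters thus moved in opposite directions, but the call of Slc2a4 held without only 1 of the 7 libraries, E13.5 replicate 4. Pgam1 fell by 1.70 and Eno1 by 1.13, while the muscle enolase Eno3 rose by 1.69, the heart-type lactate dehydrogenase subunit Ldhb by 0.93 and Mpc2, a subunit of the mitochondrial pyruvate carrier, by 1.72. Hk1, Hk2 and Ldha differed by -0.22, 0.04 and -0.28, and none was called. Without P3 replicate 1 or 3 the group gave 5 higher genes.

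In the sarcomere, alpha myosin rose and the atrial light chains fell. Myh6, the fast alpha heavy chain of the mouse heart, was at 23697, 21358, 26889 and 22057 and then at 90907, 89599 and 107387, 4.09-fold higher (2.03, SE 0.12, limma adjusted p = 9.81e-06). Myh7, the slow beta heavy chain, was at 18204, 10605, 20540 and 14756 and then at 19073, 12423 and 8808, and its groups overlapped (-0.28, limma adjusted p = 0.631). The ventricular regulatory light chain Myl2 was at 16100, 16986, 20357 and 19811 and then at 44516, 43106 and 51161 (1.34, SE 0.13). The atrial regulatory light chain Myl7 was at 6273, 5992, 6449 and 5974 and then at 1013, 1256 and 669 (-2.70, SE 0.20, limma adjusted p = 3.39e-05). Myl4, the atrial and fetal essential light chain, was at 8344, 6749, 8806 and 8713 and then at 842, 937 and 1009, 8.74-fold lower (-3.13, SE 0.15, limma adjusted p = 1.57e-06). In the atria of these pups Myl7 differed from the E13.5 hearts by 2.25 and Myl2 by -7.86, the opposite directions to those in ventricles. Thick filament genes gave 7 higher and 2 lower of 14.

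Of the thin filament and Z-disc genes 13 were higher and 1 lower of 24, with a median of 0.96. Tnni3, the adult cardiac troponin I, was at 4746, 4716, 5644 and 6025 and then at 14456, 15869 and 17813 (1.61, SE 0.14), whereas Tnni1, the fetal slow skeletal form, was at 4455, 2368, 4100 and 3542 and then at 5383, 3901 and 4392 (0.36, limma adjusted p = 0.407). Tnnt1, the slow skeletal troponin T, was at 1499, 1680, 2387 and 2428 and then at 361, 229 and 254, 7.06-fold lower (-2.82, SE 0.25). Both troponin differences had the same direction in atria, where Tnni3 was 1.38 above and Tnnt1 2.89 below the E13.5 level. Fhl2 rose by 2.44 (SE 0.16) and Myoz2, a Z-disc protein that binds calcineurin, by 2.06 (SE 0.19). Ttn, the giant spring of the sarcomere, differed by 0.08. Without a variance trend 3 genes of this group were called higher.

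Ratios within a library are free of the scaling between libraries, except where a member is near 0 and the pseudocount sets part of the ratio. This exception holds for the globin pairs at P3. In all, 21 pairs of isoforms, labelled as later and earlier, were compared as such ratios. In 16 pairs the ratio was higher in all 3 P3 ventricles than in all 4 E13.5 hearts and in 1 it was lower. With 35 ways to split 7 libraries the smallest two-sided p of an exact permutation test is 0.0571, which all 17 pairs reached and which is 0.0706 after Benjamini-Hochberg adjustment over the 21. The log2 ratio of Myl3 to Myl4 moved from 0.05 ± 0.11 (SD, n = 4) to 4.64 ± 0.20 (SD, n = 3), by 4.59. Myl4 is also an atrial chain, and in P3 atria it was 1.10 above the E13.5 hearts. The part of the dissection in this shift was not tested. The level of such a ratio depends on the lengths of the transcripts, and only its shift is read here. The ratios shifted by 2.31 for Myh6 to Myh7, 1.24 for Tnni3 to Tnni1, 3.12 for Cox8b to Cox8a, 1.53 for Cox6a2 to Cox6a1, 2.82 for Eno3 to Eno1, 4.45 for Slc2a4 to Slc2a1 and 3.54 for Ckm to Ckb. No pair can pass 0.05 in this design, and the pairs were chosen with earlier results known, so these shifts are a description.

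A few pairs did not rise without overlap. Acta1 to Actc1, skeletal to cardiac actin, shifted by -1.41, with P3 ratios of -7.08, -8.02 and -5.99 and E13.5 ratios of -5.97 to -5.43. Its mean in the wild type also fell, from -5.46 to -6.90. The label of Acta1 as the later isoform thus did not match the direction in either genotype. The ratios of Cpt1b to Cpt1a (0.74, exact permutation p = 0.114), Cox7a1 to Cox7a2 (0.55, exact permutation p = 0.171), Atp5g1 to Atp5g2 (0.55, exact permutation p = 0.171) and Hk2 to Hk1 (0.26, exact permutation p = 0.514) overlapped between the stages.

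**Figure D2:**
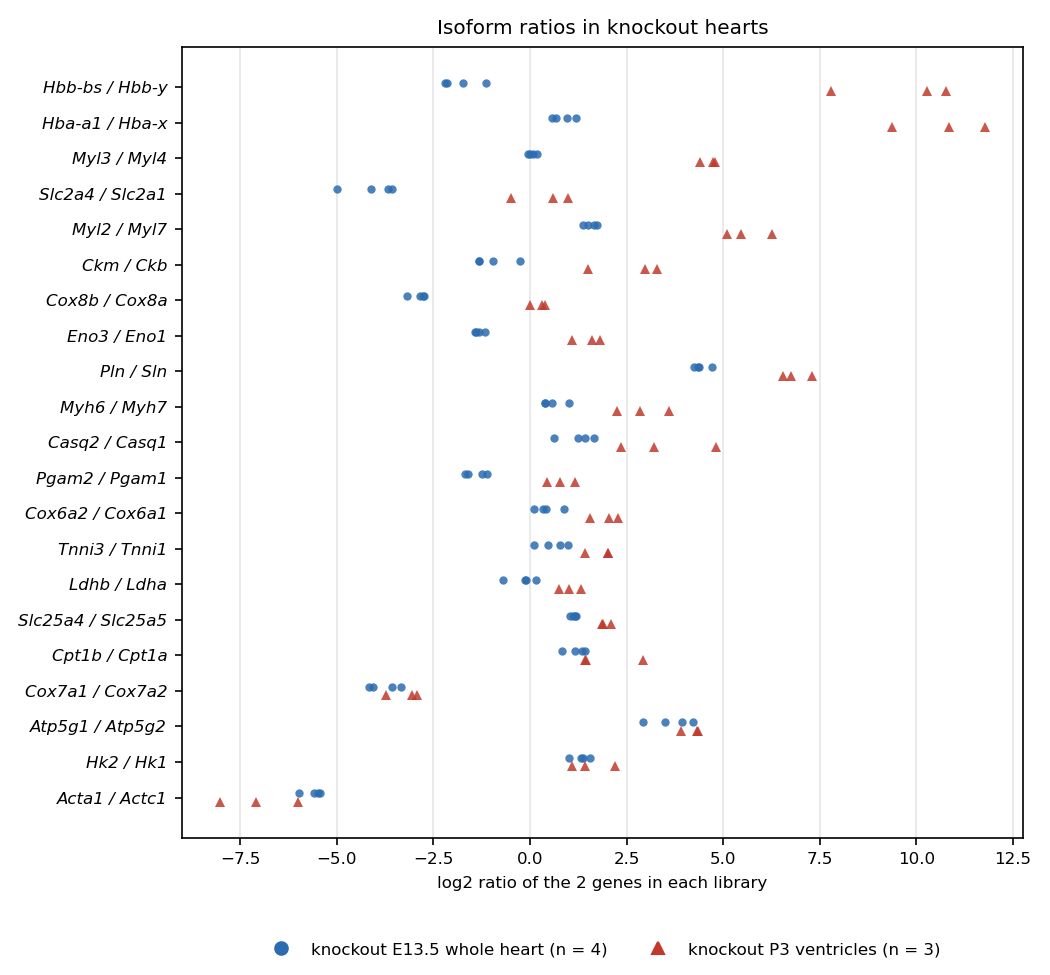
Log2 ratio of the later to the earlier isoform in each library for 21 pairs (circles, 4 knockout E13.5 hearts; triangles, 3 knockout P3 ventricles). The triangles lie wholly to the right of the circles in 16 pairs and to the left for Acta1 to Actc1. The globin pairs shift furthest, and the pseudocount sets part of their P3 ratios.

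Several genes of calcium release and reuptake rose. Of 22 calcium handling genes 10 were higher and 1 was lower. Pln, phospholamban, the brake on the calcium pump, was at 6402, 6291, 7215 and 8174 and then at 27133, 28382 and 24602 (1.93, SE 0.13, limma adjusted p = 1.77e-05). Atp2a2, the pump itself, was at 7050, 6005, 6661 and 7320 and then at 21301, 28148 and 20767 (1.78, SE 0.14). Ryr2, the release channel, was at 1224, 1037, 1387 and 1536 and then at 3626, 3987 and 3847 (1.57, SE 0.17), and Casq2, the cardiac calcium store protein, at 822, 1305, 1506 and 1134 and then at 6174, 3817 and 6467 (2.2, SE 0.24). The stages did not overlap for any of these 4. Casq1, the skeletal store protein, was at 538, 415, 565 and 478 and then spread over 671, 136 and 1268, with a difference of -0.02. Itpr2, an inositol trisphosphate receptor, was the gene that fell (-1.16). Without E13.5 replicate 3 the number of higher genes was 5, and without P3 replicate 1, 2 or 3 it was 6 each.

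Of 22 potassium and sodium channel genes 4 were higher and 1 was lower. Abcc9, the regulatory subunit of the ATP-sensitive potassium channel, rose by 1.92 (SE 0.22), from 299 to 480 at E13.5 to 1305, 1447 and 1317, and Kcne1 by 2.45. Both were below the E13.5 level in atria, by 1.22 and 3.57. Kcnip2, a partner of the channels of the transient outward current, was at 7.59, 0, 0 and 0 and then at 33.8, 92.9 and 22.6. It was tested only because of its P3 values and supports nothing by itself. Leaving out any P3 library left 2 channel genes called higher, and Kcnip2 could then not be tested.

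At the cell junctions, Gja1, the main ventricular connexin, was at 28178, 43064, 37409 and 53305 and then at 77819, 93890 and 99329 (1.19, SE 0.19, limma adjusted p = 0.00505). Gja5, the connexin of atria and the conduction system, was at 340, 316, 295 and 327 and then at 101, 45.5 and 20.3, 6.88-fold lower (-2.78, SE 0.47, limma adjusted p = 0.00656), and in atria it was 0.41 above the E13.5 level. Vcl, vinculin, which ties actin to the junction, was at 177, 168, 135 and 323 and then at 653, 819 and 980 (2.08, SE 0.32), and shares 2090 bases of exon with Ap3m1 in the annotation. In all, 6 genes of the intercalated disc were higher and 1 lower of 14.

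Of 13 genes of adrenergic and muscarinic signalling 5 were higher and 0 lower, namely the receptors Adrb1, Adra1b and Chrm2 and the phosphodiesterases Pde3a and Pde4d, which break down cyclic nucleotides. Adrb1, the main beta-adrenergic receptor of the heart, was at 6.96, 19.7, 12.1 and 28.5 and then at 190, 205 and 145 (3.49, SE 0.56, limma adjusted p = 0.00504). Chrm2, the muscarinic receptor that slows the heart, was at 138, 310, 239 and 373 and then at 1003, 802 and 743 (1.76, SE 0.33, limma adjusted p = 0.0110). Adra1b was at 1.27, 9.86, 12.1 and 0 and then at 77.4, 89.4 and 85.4. The number of higher genes fell to 2 without P3 replicate 1 or 2, to 3 without E13.5 replicate 1 and to 1 without a variance trend or with preparation year as a covariate.

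Some atrial genes were lower, and some ventricular genes higher, in the P3 samples, which are labelled as ventricles. Of 19 atrial genes 0 were higher and 5 were lower, namely Bmp10, Myl1, Myl4, Myl7 and Gja5, and of 19 ventricular genes 10 were higher and 1 was lower. Bmp10, a growth factor made by atrial and trabecular muscle, was at 128, 119, 71.6 and 157 and then at 4.83, 14 and 0.871 (-4.40, SE 0.74, limma adjusted p = 0.00629). In P3 atria it was 4.54 above the E13.5 hearts. The summed signal of the atrial list was 29100 to 35434 at E13.5 and 17096, 9832 and 38118 at P3, where Nppa made up most of the third value. When the P3 value was taken as the mean of each pup's atrial and ventricular log2 levels, Myl2 turned to -3.26, Bmp10 to 0.07, and the medians of the atrial and ventricular lists to 0.46 and -0.15. On the log2 scale a gene that is very low in 1 chamber pulls this mean far down, so such turns are not those of a whole heart. Myl4 still fell (-1.01, or -0.95 without the third pup), and Fabp3, Cd36, Mb, Myh6 and Tnni3 kept their direction and their calls.

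Of 27 cardiac and chamber transcription factors 1 was higher (3.70%) and 4 were lower (14.8%), against 3.73% and 2.29% of all genes. Isl1, which marks progenitors of the second heart field, was at 109, 74.9, 25.8 and 143 at E13.5 and at 0 in all 3 P3 ventricles. Nr2f1, an atrial regulator, was at 125, 191, 162 and 105 and then at 8.25, 36.5 and 28.7 (-2.72, SE 0.55, limma adjusted p = 0.0151). In P3 atria Isl1 was also below the E13.5 level, whereas Nr2f1 differed by 0.05. Hopx, a homeodomain protein of maturing muscle, rose by 1.22. Without any one E13.5 library 1 or 2 of these factors were called lower.

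Many fetal growth genes fell. Of 22 genes of the fetal and imprinted list 12 were lower and 0 higher, against 2.29% and 3.73% of all genes, with a median of -1.54. Leaving out any 1 library gave 12 or 13 lower genes. Mest, a paternally expressed growth gene, was at 10213, 8813, 9037 and 12390 and then at 2645, 1941 and 2292, 4.40-fold lower (-2.14, SE 0.16, limma adjusted p = 4.32e-05). H19, the maternally expressed RNA next to Igf2, was at 7167, 6129, 6804 and 7122 and then at 1593, 1875 and 958 (-2.26, SE 0.21). Igf2, the fetal growth factor, was at 4930, 3767, 4184 and 4537 and then at 1517, 1615 and 1404 (-1.52, SE 0.15). In all 3 genes the stages lay well apart. In P3 atria the same genes differed from the E13.5 hearts by 0.21, -0.42 and -0.21. Sox11 (-1.83), Mycn (-2.44), Peg3 (-1.68), Plagl1 (-1.15) and Gpc3 (-1.55) also fell. Lin28b was at 15.2 to 131 and then at 32.4 to 40.9 and was not called, and Igf2bp3 differed by -0.87 (limma adjusted p = 0.0533).

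Of 14 genes of the insulin-like growth factor axis 1 was higher (7.14%) and 5 were lower (35.7%), against 3.73% and 2.29% of all genes. Igf2r, the receptor that clears the growth factor, was at 30884, 35318, 33037 and 35214 and then at 10684, 15697 and 13333 (-1.36, SE 0.14). Igfbp7, a binding protein of vessels, was at 172, 109, 100 and 137 and then at 1109, 1344 and 2165, 11.6-fold higher (3.53, SE 0.30, limma adjusted p = 8.43e-05). The binding protein genes thus moved in both directions, since Igfbp2 (-3.78) and Igfbp5 (-1.72) fell. Without P3 replicate 1 or 3 the axis gave 3 lower genes.

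Few mitotic genes were called lower, though all differences pointed that way. All 36 mitosis and cytokinesis genes tested had a negative difference, with a median of -0.76, and 8 were called lower against 2.29% of all genes. The promoters of 3 of the 8 are shown because genes of late mitosis are known for a shared promoter design, a CHR element near the start of transcription below CCAAT boxes. Each sequence is the 250 bases before the start, 5′ to 3′ on the strand of the gene, from RefSeq on GRCm38.p6, and capitals mark the CHR core TTTGAA or TTCAAA and the CCAAT box CCAAT or ATTGG. Ube2c lies on the plus strand (chr2:164769679-164769928), Top2a on the minus strand (chr11:99024190-99024439) and Kif11 on the plus strand (chr19:37376132-37376381).
Ube2c: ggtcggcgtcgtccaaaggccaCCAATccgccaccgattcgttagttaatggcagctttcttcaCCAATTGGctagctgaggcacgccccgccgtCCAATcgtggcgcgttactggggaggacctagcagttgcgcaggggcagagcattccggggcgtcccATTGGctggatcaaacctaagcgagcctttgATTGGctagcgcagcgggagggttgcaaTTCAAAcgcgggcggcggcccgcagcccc
Top2a: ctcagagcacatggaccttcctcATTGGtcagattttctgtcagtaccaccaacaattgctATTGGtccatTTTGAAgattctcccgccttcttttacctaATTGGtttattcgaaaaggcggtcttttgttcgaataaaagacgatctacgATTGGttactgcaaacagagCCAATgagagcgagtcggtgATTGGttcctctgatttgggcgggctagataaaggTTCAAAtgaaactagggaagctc
Kif11: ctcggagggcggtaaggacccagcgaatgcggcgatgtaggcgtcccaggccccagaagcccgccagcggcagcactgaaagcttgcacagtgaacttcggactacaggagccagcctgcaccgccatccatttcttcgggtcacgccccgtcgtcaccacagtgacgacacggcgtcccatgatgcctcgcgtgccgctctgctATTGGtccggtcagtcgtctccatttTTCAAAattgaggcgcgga
The CHR core began 29 bases before the start in Ube2c, 23 in Top2a, which held a further match 179 bases before it, and 19 in Kif11. A CCAAT and an ATTGG overlap in Ube2c. Over the full window of 250 bases before to 50 after the start, on both strands, 25 of 32 promoters of the mitotic genes held the CHR core (78.1%), against 17.9% of the 32851 promoters of the table. The share was 75.0% of the 8 promoters of 7 called genes and 79.2% of the 24 promoters of 23 genes not called, so it does not separate them. Counted by gene it was 5 of 7 and 18 of 23. Ect2 has 2 overlapping promoters, and not every called gene has one in the table. Over the same window a CCAAT box stood in 25 of the 32 against 37.4% of all, and both in 65.6% against 6.95%. The 3 promoters shown are not typical in position. In the 50 bases before the start the CHR core began in 7 of the 32 (21.9%), against 2.82% of all. A match of letters is a description and shows no binding.

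Ube2c, which loads ubiquitin for the anaphase-promoting complex, was at 851, 520, 875 and 785 and then at 265, 221 and 504 (-1.26, SE 0.31, limma adjusted p = 0.0392). Kif11, the motor that separates spindle poles, was at 459, 423, 536 and 524 and then at 152, 248 and 74.0 (-1.77, SE 0.37, limma adjusted p = 0.0183). Top2a, which untangles chromosomes, was at 6128, 4594, 5282 and 5631 and then at 2682, 2635 and 3997 (-0.82, SE 0.18, limma adjusted p = 0.0222). Ect2, which starts the cleavage furrow, was at 683, 511, 742 and 641 and then at 256, 186 and 224 (-1.53, SE 0.23, limma adjusted p = 0.00391). The stages did not overlap in these 4 genes, and Ect2 was the one called with any single library left out. Mki67, the usual proliferation marker, was at 3846, 3493, 3655 and 4604 and then at 2346, 2528 and 3454, which was not called (-0.50, limma adjusted p = 0.128). Without 1 library the number of mitotic genes called ranged from 1, without E13.5 replicate 3 or P3 replicate 1, to 7. It was 0 with preparation year as a covariate, 1 without a variance trend and 12 with quantile normalization.

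Of 32 replication genes none was called, against 6.02% of all genes, 30 had a negative difference and the median was -0.68. Cyclins of G1 fell in part. Ccnd2, which drives entry into the cycle, differed by -1.10 (limma adjusted p = 0.0123), and with Cdkn1c it made up the 2 lower genes of 21. All 52 genes of cytosolic ribosomal proteins had a negative difference, with a median of -0.41, and Rpl7, Rpl32 and Rps19 were called, each with the call lost without most single libraries.

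Matrix genes changed in both directions. Of 21 collagen genes 7 were higher and 3 lower, and of 35 proteoglycan, elastic fibre and hyaluronan genes 9 were higher and 3 lower. Col4a1, a chain of basement membrane, was at 1555, 929, 1422 and 1419 and then at 3118, 3376 and 5250 (1.54, SE 0.23), and Col6a1 was at 195 to 445 and then at 1088, 1065 and 701 (1.73, SE 0.31). Col2a1 (-5.23) and Col9a1 (-2.92), which are chains of cartilage and of embryonic valves, fell together with Hapln1. Postn, of activated fibroblasts and valves, was at 4679, 5611, 5038 and 6345 and then at 13860, 19997 and 15148, 3.00-fold higher (1.58, SE 0.16, limma adjusted p = 3.11e-04). Dcn (1.68) and Ogn (2.51), small proteoglycans, also rose, as did elastin, Eln (1.92). Without P3 replicate 1 or 3 the collagen genes gave 4 higher and 1 lower, and with the library of highest Creld1 at each stage left out 2 and 2. Without P3 replicate 3 the other matrix genes gave 5 higher and 1 lower.

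Markers of other cell types moved beside these genes. Fibroblast markers gave 5 higher and 1 lower of 15, and their summed signal was 39070 to 52509 at E13.5 and 70910 to 82461 at P3. Endothelial markers gave 4 higher and 1 lower of 27, with sums of 8194 to 8992 and 26136 to 32011, to which Fabp4 and Cd36 contributed most at P3. Car4, of capillary endothelium, was at 0 in all 4 E13.5 hearts and at 45.6, 32.2 and 21.6 at P3, and Higd1b, of pericytes, at 0 in all 4 and at 107, 86.1 and 223. Both were tested only because of their P3 values and support nothing by themselves. Smooth muscle and pericyte markers gave 3 higher and 0 lower of 15, with Rgs5 at 190, 447, 267 and 129 and then at 1293, 1034 and 1193. Most markers of vessel walls and capillaries were thus not called, and the part of cell composition in the results above was not tested.

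Epicardial markers gave 2 lower of 12, Krt19 (-2.24) and Tbx18 (-0.82, a call lost without any one of the 7 libraries), with a median of -0.88 and sums of 1813 to 2156 and 964 to 1393. Endocardial cushion genes gave 1 lower of 20 (5%, against 2.29% of all genes), Prrx2, with a median of -0.68. Macrophage markers gave 0 of 15 called, with sums of 824 to 1095 and 1167 to 1302 and with Timd4 and Folr2 at 0 in all 7 libraries, and other leukocyte markers gave 0 of 5, with Cd79a and Ltf at 0. Nerve and glia markers gave 0 of 8, with Sox10 at 0. Beside the 6.02% of all genes called, such counts of 0 in short marker lists say little. Of 7 genes of neighbouring tissues only Fabp4 was called. Adipoq and Ucp1, markers of fat, were at 40.3 and 43.7 in P3 replicate 2 and at 0 in the other 6 libraries, and Sftpc of lung was at 0 in all 7.

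Embryonic globins were at or near 0 in the P3 samples. Of 13 erythroid genes 5 were lower and 0 higher, and all 13 differences were negative, with a median of -1.75. Hbb-y was at 78449, 34371, 27727 and 16090 and then at 1.93, 3.04 and 34.8, and Hba-x at 13920, 5998, 6219 and 3245 and then at 0, 2.70 and 1.55. Hbb-bh1, another embryonic chain, was at 550, 225, 255 and 89.8 and then at 0, 0 and 0.871. Adult beta globin Hbb-bs was at 17695, 10313, 12586 and 3491 and then at 5127, 4966 and 7989, and its groups overlapped (-0.69, limma adjusted p = 0.444). Each of these 4 globins was highest in E13.5 replicate 1 and lowest in replicate 4 among the embryonic hearts. The number of erythroid genes called lower was 7 without E13.5 replicate 4 and 3 without any other library. Adult alpha globins Hba-a1 and Hba-a2 are near-identical copies, between which reads cannot be divided with certainty.

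Genes of wall stress behaved less evenly. Of 17 natriuretic and stress genes 3 were higher and 0 lower. Ctgf, a matricellular growth factor, was at 175, 307, 314 and 293 and then at 1753, 1344 and 4087 (3.00, SE 0.37, limma adjusted p = 9.71e-04). Ankrd1, a stretch-responsive protein of the titin spring, was at 6778, 6760, 9553 and 8018 and then at 27956, 14964 and 53036 (1.87, SE 0.33, limma adjusted p = 0.00853). Nppb, the B-type natriuretic peptide, was at 435, 354, 632 and 476 and then at 1411, 765 and 3922 (1.80, SE 0.45, limma adjusted p = 0.0406). In all 3 genes P3 replicate 3 was highest and P3 replicate 2 lowest. Creld1 was at 19.9, 59.3 and 51.9 in P3 replicates 1 to 3, and a relation of these genes to its level was not tested. The call of Nppb was lost without any one of 6 libraries, all but P3 replicate 2. Nppa, the A-type peptide, was at 11961, 6073, 8757 and 9894 and then at 11104, 2713 and 31208, and its groups overlapped (0.14, limma adjusted p = 0.937).

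Of 25 endoplasmic reticulum chaperone genes and of 14 genes of the ATF4 response none was called, with medians of -0.03 and -0.25. Beside the 6.02% of all genes called, 0 calls in lists this short say little. Small heat shock and antioxidant genes gave 5 higher and 1 lower of 28, among them Hspb6 (2.49), Cat (1.19) and Sod2 (0.96), and 2 higher without P3 replicate 3. Of 17 splicing regulators of heart maturation 4 were higher. Rbm20, which directs titin splicing, was at 578, 556, 548 and 572 and then at 1564, 1465 and 2029 (1.57, SE 0.18, limma adjusted p = 7.26e-04), and Mbnl1, Mbnl2 and Qk rose by 0.89, 0.94 and 0.61, though 1 of the 17 was called without P3 replicate 3 and 2 without E13.5 replicate 3 or P3 replicate 1. Epas1, the hypoxia-inducible factor of endothelium, rose by 1.87. No gene of the Notch list was called of 12, which says as little beside the 6.02% of all genes. Immediate early genes gave 3 higher of 17, Ier3, Dusp1 and Jun, and the number called was 0 without P3 replicate 2 or 3.

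**Figure D3:**
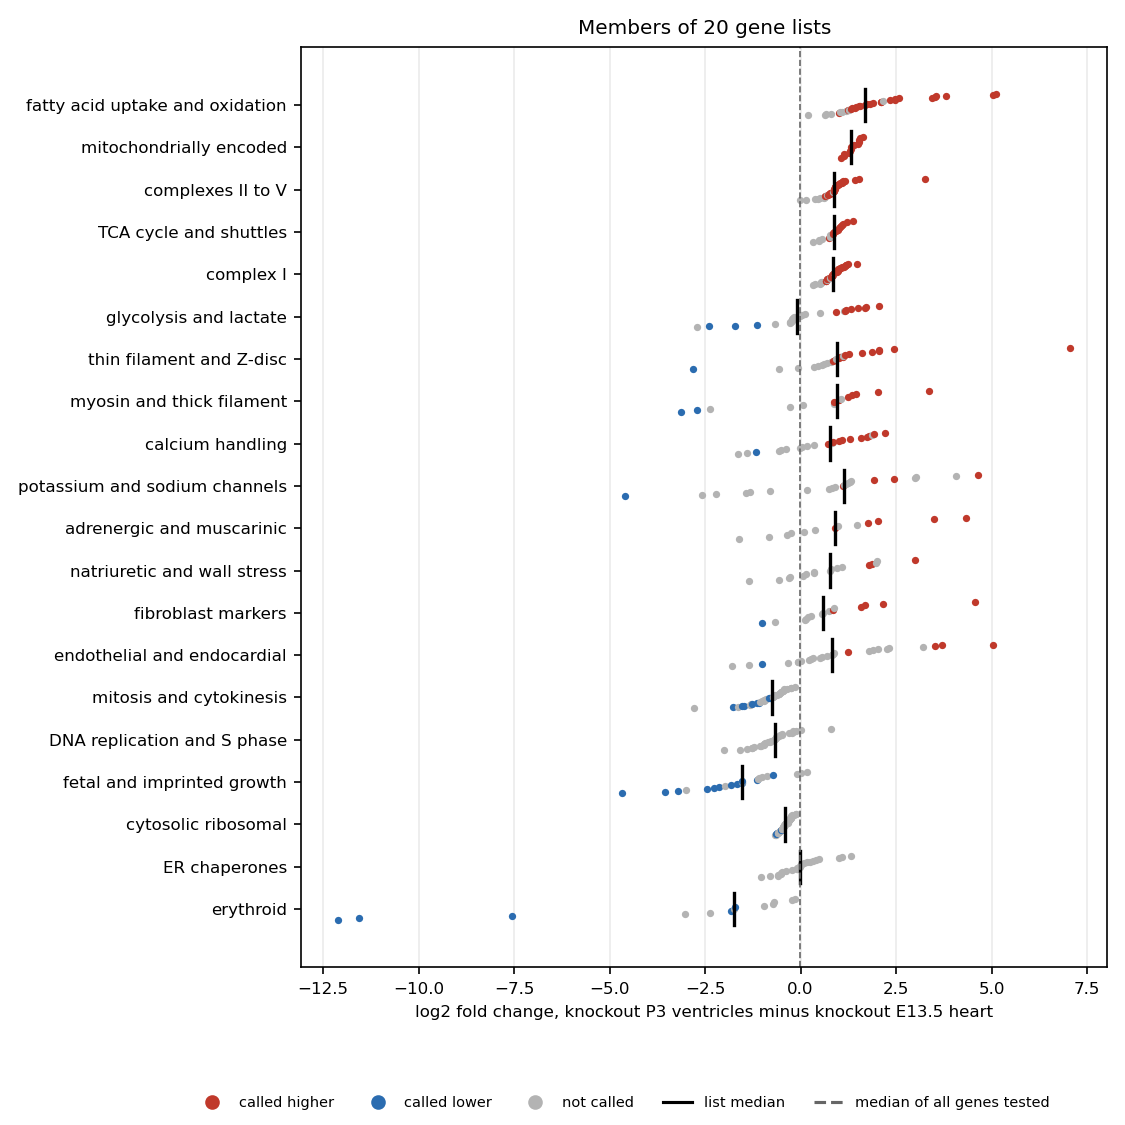
Log2 difference of knockout P3 ventricles minus knockout E13.5 hearts for the members of 20 gene lists, 1 point per gene, coloured by whether it was called higher, called lower or not called at a limma adjusted p under 0.05. Black bars give the median of each list and the dashed line the median of all genes, -0.02; the lists of fatty acid oxidation and respiration lie to the right of it and those of fetal growth, mitosis and ribosomal proteins to the left.

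The same change was then compared between genotypes, as the difference of the P3 minus E13.5 change in knockout and in wild-type hearts. Of 17040 genes tested none (0%) was called by limma in this interaction, the smallest adjusted p being 0.551, and 847 genes (4.97%) had an unadjusted p under 0.05. Across the 911 genes called in the knockout, the knockout and wild-type changes correlated with a Pearson r of 0.897, and across all 15141 genes with one of 0.566. These are descriptions across genes, whose values come from the same 14 libraries, and carry no test. Of the 911 genes 891 changed in the same direction in the wild type, and 462 changed by more there. In simulated data of this size the interaction test recovered 13 of 100 genes made to differ 4-fold and 0 of 100 made to differ 2-fold. A 2-fold difference between genotypes in as few genes would thus be missed. The adjustment is milder where more genes differ, a case that was not simulated.

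In the metabolic genes the wild-type change was the larger in most members. For fatty acid uptake and oxidation the median change was 1.68 in the knockout and 2.27 in the wild type, and 31 of 33 genes changed more in the wild type, against 8206 of all 15141 genes. For the mitochondrially encoded genes the medians were 1.33 and 1.52 and all 13 changed more in the wild type, for complex I 33 of 36 and for complexes II to V 39 of 42. This was not particular to metabolism. It also held for 50 of 52 cytosolic ribosomal genes, 20 of 25 endoplasmic reticulum chaperone genes and 13 of 17 splicing regulators, but for 9 of 24 thin filament and Z-disc genes. Mb rose by 3.47 and 4.46 (unadjusted p of the difference 0.00270), Hadh differed by 0.63 and 1.70 (0.00195), Decr1 by 1.68 and 2.53 (0.00555) and Lpl by 2.48 and 3.11 (0.0204). None of these differences passed the adjustment, and the members of a list share their libraries.

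Of the 17 natriuretic and stress genes 8 changed more in the wild type, beside 8206 of all 15141 genes. Ctgf changed by 3.00 in the knockout and 0.86 in the wild type (unadjusted p of the difference 0.00180), Ankrd1 by 1.87 and 0.36 (0.00182), Nppb by 1.80 and -0.06 (0.00575) and Nppa by 0.14 and -2.69 (0.00856). In this list 6 genes had an unadjusted p under 0.05. Casq1 differed by -0.02 in the knockout and -2.58 in the wild type (0.00370). Without P3 knockout replicate 2, the library with the highest Creld1 at P3, limma called 4 genes in the interaction: Ankrd1 (adjusted p = 0.0457), Casq1 (adjusted p = 0.0406), Gyg (adjusted p = 0.0406) and Kcnd2 (adjusted p = 0.0406). With E13.5 knockout replicate 1 left out as well none was called, and 914 had an unadjusted p under 0.05.

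Mitotic genes had like medians, -0.76 in the knockout and -0.73 in the wild type, but Kif11 was -1.77 in the knockout and 0.66 in the wild type (unadjusted p of the difference 0.00260). The genes with the smallest unadjusted p were, with a higher change in the knockout, Pdlim3 (0.47 against -1.39), Cdh3 (0.06 against -3.33), Cnn1 (-1.83 against -5.51), Aebp1 (1.36 against -1.44) and Clu (0.75 against -0.65). With a lower change in the knockout they were Slc36a2 (-2.74 against 2.97), Sult1a1 (0.18 against 3.83), Clk2 (-1.28 against 1.26), Plppr4 (-4.10 against 2.35) and Pdss2 (-0.93 against 1.6). They are given as values, since none passed the adjustment.

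**Figure D4:**
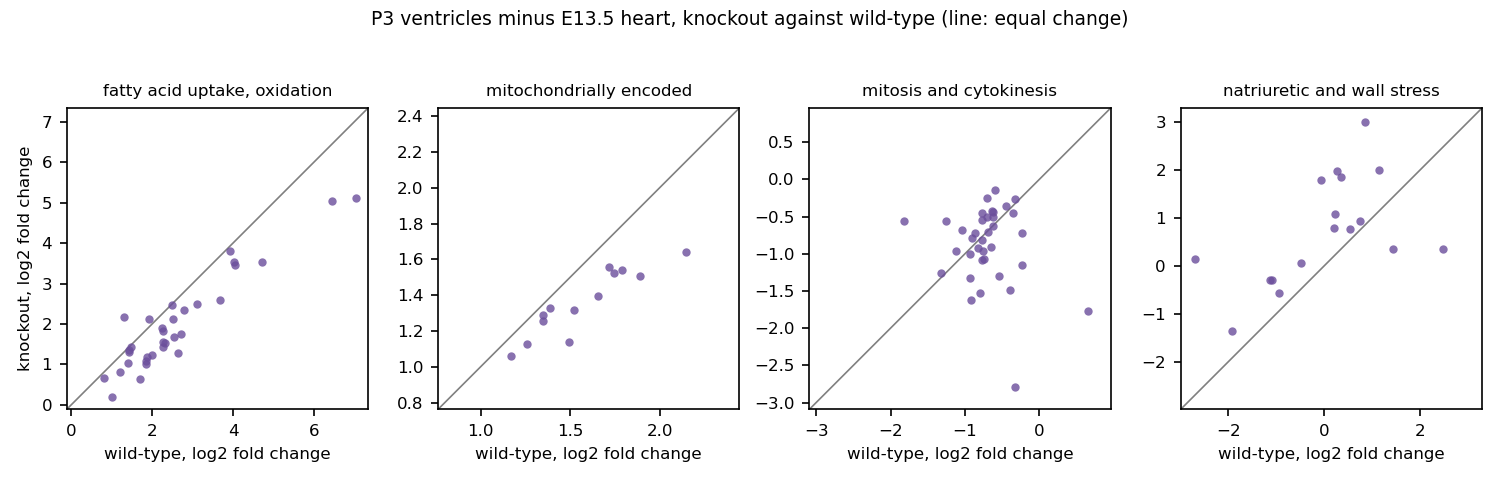
Change from E13.5 heart to P3 ventricles in the knockout (vertical axis) against that in the wild type (horizontal axis), in log2 units, 1 point per gene, for 4 gene lists; the diagonal marks equal change. Fatty acid and mitochondrially encoded genes lie mostly under the diagonal, with 31 of 33 and 13 of 13 changing more in the wild type, and the stress genes Ctgf, Ankrd1, Nppb and Nppa lie above it.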

How the data were processed

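Per the labels' protocols, RNA was purified on RNeasy Micro columns and turned into libraries by SMART-Seq2. STAR 2.5.1, bcl2fastq 2.2, DESeq2 and the build mm10 appear in the submitters' processing notes with no role given. Neither counting tool, use of strand, annotation nor scaling is given in the sources used here. A single table of 26440 genes was deposited, and its values were taken as normalized linear signal. Of the low values of all genes (at most 100 estimated counts), 50.8 to 60.8% equalled whole multiples of 1 step per library within 0.001 reads, so no count test was run. The step gave the estimated totals.

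The deposited signal was tested as log2(value + 1) with limma 3.58.1 in R 4.3.3, with a variance trend on the mean level, for genes of 10 or more in at least 3 of the 7 libraries. Residual and prior degrees of freedom were 5 and 5.71, and 10 and 6.37 for the interaction over 14 libraries. Tests were two-sided, and a gene was called where its p, adjusted by Benjamini-Hochberg, was under 0.05. Each library is 1 animal. The pseudocount makes the differences of low genes too small, and a difference from a group at 0 is no bound. Genes near 0 in most libraries of 1 stage, among them Kcnip2, Plin5, Car4, Higd1b, Isl1, Hba-x, Hbb-y and Hbb-bh1, passed the filter only through the other stage. Groups came from the sample titles. Isoform ratios were tested by exact permutation.

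The members and gene lists were chosen with earlier results of these data known, so no list is independent evidence. The genes named were Creld1, Creld2 and up to 12 called genes per direction with the largest difference. These 12 had a properly named symbol, a median level or above, groups that do not overlap and no sex-linked or mitochondrial origin. Also named were the 2 to 4 list members of smallest p where a list held a called gene, both genes of each isoform pair, and for the interaction the 5 genes per direction with the smallest p. Other members (Acsl1, Acaa2, Acadm, Hadh, Plin5, Mki67, Igfbp2, Ube2c and further list members given by their difference alone) were named after their values were seen. Some genes that meet these rules are not reported here.

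In simulated data with the real means, the stage test recovered 1 of 100 genes changed 2-fold and 25 of 100 changed 4-fold, with 0 false calls. Far fewer genes were changed there than differ in the real data, which makes the adjustment stricter, so these shares do not carry over to the real stage test. Of the gene identifiers 24387 matched GENCODE vM21 with their version and 26401 without it. Among others, exons overlap another gene on the same strand for Igf2 (3596 bases) and Cpt1b (2744). On the opposite strand they do so for Pln (1644), Tbx18 (970), Mest (912), Ctgf (665), Cdkn1c (625), Myh7 (523), Ckm (451) and Mb (412). Reads of all these genes could be shared, since use of strand is not given. Deviations of same-numbered libraries of the 2 stages correlated at 0.051, 0.032 and -0.016, so the numbers do not pair them. Knockout and wild-type libraries of 1 number share a litter per the labels and were paired by a block in an alternative fit of the interaction (correlations -0.016 to 0.069).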

Additional observations from a re-analysis of the deposited data

Results flagged for a closer look

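Among the 4 knockout E13.5 hearts, 10 of 161 values had 1 library far from the other 3 (6.21%), judged by a gap larger than Dixon's 95% critical share of the whole range on the log2 scale. Chance flags about 1 in 20 such groups, and the flags fell on all 4 libraries, with 3, 3, 2 and 2 each. Replicate 1 was the odd library for Kcnip2 (7.59, the others at 0), Ctgf (175, low) and Grb10 (4014, low). Replicate 2 was the odd one for Atp5g3 (6209, low), Sod2 (1201, low) and Dcn (1688, high). Replicate 3 was the odd one for Kat2b (408, low) and Prrx2 (111, high). Replicate 4 was the odd one for Rcan2 (150) and Hk2 (456), both low. Kcnip2 lost its call without E13.5 replicate 2, 3 or 4, and Ctgf and Dcn stayed called without the odd library.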

How the results depend on the processing

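Of the 911 called genes all kept their direction with another pseudocount, no filter, recomputed median-ratio scaling, array weights, no variance trend, preparation year or Xist as a covariate and the replicate block, and 909 with quantile normalization. The counts of higher and lower genes moved more than 1.5 times for some settings. They were 199 and 117 without a variance trend (all at least 2-fold, so 199 and 117 there too), 360 and 205 when 6 groups shared the spread, and 249 and 62 with preparation year as a covariate (246 and 61 at least 2-fold). With E13.5 knockout 1 and P3 knockout 2 left out they were 259 and 143 (226 and 135 at least 2-fold). The mean of each pup's atrial and ventricular log2 levels gave 267 higher (239 at least 2-fold), and 894 of the 911 genes kept their direction. Leaving out 1 library gave 288 to 522 higher and 192 to 248 lower genes, and 227 to 433 and 174 to 227 at least 2-fold. The cause of these shifts was not tested, though fewer samples or more parameters enter most of them. The replicate block gave 444 higher and 207 lower genes. It is no pairing, since the numbers do not pair the stages, and in the interaction it called 0 genes. The interaction called 0 genes except for 1 lower without a variance trend (Sun3), 1 higher without P3 wild-type replicate 2 (Gm2026) and 3 higher and 1 lower without P3 knockout replicate 2, so that leaving out 1 library gave 0 to 3 higher and 0 to 1 lower. Directions turned for differences near 0. Cox6a1 was 0.00032 with median-ratio scaling, 0.039 with Xist, 0.053 with the block, 0.18 without both libraries of highest Creld1 at their stage, 0.092 with the mean over chambers and -0.16 to 0.13 with 1 library left out. Hk2 was -0.053 with array weights, -0.081 with Xist, -0.019 with the block, -0.42 with the mean over chambers and -0.21 to 0.24 with 1 library left out. Casq1 was 0.030 with preparation year, 0.16 with Xist, 0.94 without both libraries, 0.26 with the mean over chambers and -0.71 to 0.90 with 1 library left out. Creld2 was 0.066 with the block, 0.21 with the mean over chambers and -0.38 to 0.19 with 1 library left out. Acta1 was 0.28 without both libraries and -1.33 to 0.19 with 1 left out. Ckb was 0.034 and Ldha 0.060 without both, and Myh7 was 0.0045 with Xist. Preparation year gave 0.75 for Hbb-bs and -0.0054 for the median of the thyroid and glucocorticoid list. The median of the ATF4 list was -0.39 to 0.0064 with 1 library left out. The mean over chambers turned Myl2 (-3.26), Myl3 (-0.47), Kcne1 (-0.56), Bmp10 (0.068), Tnni1 (-0.15), Sln (2.06), Ckb (0.14) and the medians of the atrial (0.46) and ventricular (-0.15) lists. Atrial replicate 3 stood apart in mitochondrial transcripts, so 2 alternatives were added after seeing the data. The mean over chambers of pups 1 and 2 gave 166 higher and 153 lower genes (142 and 129 at least 2-fold), and turned Myl2 (-3.15), Myl3 (-0.77), Kcne1 (-0.76), Bmp10 (0.34), Tnni1 (-0.39), Sln (2.11), Cox8a (-0.023), Creld2 (0.18), Hk2 (-0.56) and the medians of the atrial (0.43), ventricular (-0.39) and ATF4 (0.065) lists. With 6 groups sharing the spread but not this library, 423 genes were higher and 242 lower. Over all fits and named genes a call was lost 575 times and gained 29 times. Leaving out P3 wild-type replicate 2, listed as a setting of its own, is the same fit as its leave-one-out. Depth limits low genes, such as those at 0 in a whole group.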
